A study of Mus musculus with 6 samples.

Results

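The liver X receptors (LXRs) and 8 of their target genes were examined in inguinal white adipose tissue (iWAT), the subcutaneous fat depot of the mouse. The 10 genes were *Nr1h2*, *Nr1h3*, *Abca1*, *Abcg1*, *Mylip*, *Lpcat3*, *Apoe*, *Pltp*, *Scarb1* and *Srebf1*, and they were found by their symbol among the 19509 symbols (37024 rows) of the count table. Of the 10, 6 had a row and 5 had enough reads to be tested. *Nr1h2*, *Apoe*, *Scarb1* and *Srebf1* had no row analysed here. A gene with more than 1 row was represented by the row with the highest total.

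The study deleted *Lexis*, a long noncoding RNA induced by LXR and PPARγ, in adipocytes, and asked how iWAT gene expression differed. Bulk RNA-Seq was made from 3 *Lexis*-AdWT and 3 *Lexis*-AdKO mice, all fed a Western diet for 12 weeks and called biological replicates in the study. All mice were C57BL/6 and carried loxP-flanked *Lexis* alleles (*Lexis* fl/fl). The AdKO mice also carried Cre driven by the adiponectin promoter, which is active in adipocytes, and the AdWT mice were Cre-negative littermate controls. Other cells of the depot were not targeted by this Cre. The age and sex of these 6 mice were not given in the sources used here.

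LXRα, encoded by *Nr1h3*, and LXRβ, encoded by *Nr1h2*, are nuclear receptors for oxidized cholesterol derivatives. They bind DNA as heterodimers with a retinoid X receptor (RXR), at repeats of a hexamer spaced by 4 bases (DR4 elements), and switch on genes that export cholesterol, limit its uptake and build fatty acids and phospholipids. *Abca1* is a classic target, and in the mouse genome it is a neighbour of *Lexis*.

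The libraries held between 14470542 and 17882713 counts. Levels are given in CPM, the counts of a gene scaled to a library of fixed size, and a zero is read as under 3 counts, or 0.179 to 0.206 CPM on the same scale, a limit that covers counting error only. The row taken for *Lexis* was that of the lincRNA gene *4930412L05Rik* (chromosome 4, minus strand, 53217938 to 53230729 in NCBIM37, which is mm9), 45170 bases from *Abca1*. Its counts were 8, 9 and 8 in AdWT and 21, 11 and 13 in AdKO, so this row was not lower in the libraries labelled AdKO (log2 fold change 0.87, 95% confidence interval −0.02 to 1.76, adjusted *P* = 0.851 in edgeR's quasi-likelihood test). The study describes isoforms of *Lexis* that differ between adipose tissue and liver, and whether this row counts the adipose ones is not known. A row with so few counts is no check of the labels. The study describes the loss of *Lexis* in adipose tissue from measurements of its own, not analysed here, and directions are given by label. Adipocyte markers were abundant in every library, with a summed level of 59961 to 78808 CPM in those labelled AdWT, against 56026 to 60681 CPM in those labelled AdKO. Skeletal muscle markers summed to 17.9 to 174 CPM in the libraries labelled AdWT, highest in replicate 2, and to 4.48 to 6.05 CPM in those labelled AdKO. Of 5 hepatocyte markers, only 2 had a row, and 1 of these was at 0 in all libraries. The other, *Ttr*, was at 3.66 to 149 and 2.41 to 55.8 CPM. Epithelial markers summed to 0.956 to 20.3 and 0.894 to 48.0 CPM. The muscle markers thus separated the groups, and of the 6 tested all 6 had a lower mean in AdKO at an unadjusted *P* under 0.05 in edgeR's test (median log2 fold change −4.20, without overlap in 5), against 2.98% of all rows for the former and 11.9% for the latter. In the hepatocyte and epithelial markers replicate 3 of each label held the highest values, and these 2 libraries also held the lowest (AdWT) and highest (AdKO) values of *Nr1h3*, *Abcg1* and *Nceh1*. Their part in the results was not tested.

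The promoters were searched for the DR4 letters that LXR and RXR are known to bind, a pair of AGGTCA hexamers in the same direction with 4 letters between them, on both strands, allowing up to 3 of the 12 fixed letters to differ. RefSeq promoter windows (GRCm38.p6, 250 bases before to 50 bases after a start) covered 8 of the 10 genes with 13 windows, without *Abcg1* and *Scarb1*. Only 2 of these windows held such an element, against 7189 of 32851 windows in all (21.9%). A match at this allowance is thus common and does not by itself show binding. Those in *Abca1* and in one start of *Srebf1* are shown so that their letters can be read beside the motif, as the closest matches among these 13 windows and not as a feature of the genes. They lie 67 to 52 and 182 to 167 bases before the start, are written in the direction of the motif, and carry in capitals the letters that match it:
Abca1: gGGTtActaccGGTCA
Srebf1: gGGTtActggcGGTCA
The 150 bases before the *Abca1* start lie at chr4:53159896-53160045 on the minus strand of GRCm38.p6. In the direction of transcription they hold the same element as its reverse complement, in capitals:
Abca1 promoter: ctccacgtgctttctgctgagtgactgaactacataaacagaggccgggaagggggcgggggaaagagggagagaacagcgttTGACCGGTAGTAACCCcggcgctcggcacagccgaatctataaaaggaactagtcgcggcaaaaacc

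No measured LXR receptor or target gene passed the test between the libraries labelled AdWT and AdKO. *Abca1* and *Pltp* had the most counts and group means within a few percent of each other, while *Abcg1*, *Mylip* and *Nr1h3* were higher in the libraries labelled AdKO by amounts that did not pass the test. Of the 5 genes tested, 4 had a higher and 1 a lower mean, and their median log2 fold change was 0.15, against 0.01 over all 9872 rows tested. None (0 of 5) had an adjusted *P* under 0.05 in edgeR's test, where 0.0% of all rows did, and DESeq2 with its defaults called 0 of them too, against 0.152% of the rows to which it gave an adjusted *P*. At an unadjusted *P* under 0.05 the count was also 0, against 5.73% of all rows (2.76% higher and 2.98% lower in AdKO), and the groups overlapped in all 5, while 11.9% of all rows had groups that did not overlap. The smallest adjusted *P* of the 5 genes was 0.853. In bulk tissue, fewer cells of a type and less RNA per cell cannot be told apart.

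**Figure D1:**
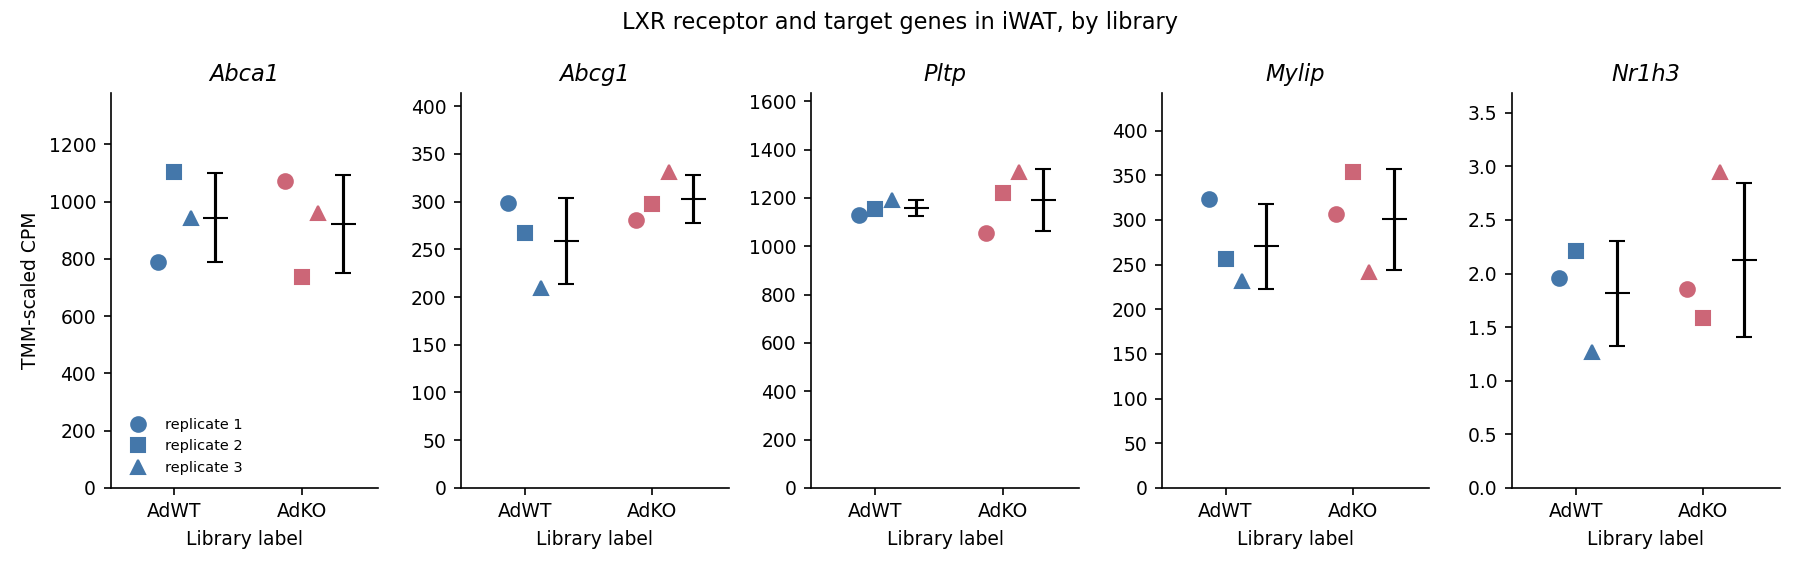
TMM-scaled CPM (vertical axes, each starting at 0) of the 5 testable genes in each library, with replicates 1, 2 and 3 of each label as circle, square and triangle, and the mean ± SD (n = 3) in black. In every panel the AdWT points (blue) and AdKO points (red) overlap, and the *Nr1h3* points, from 1.27 to 2.94 CPM, rest on 19 to 49 counts per library.

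*Nr1h3* (ENSMUSG00000002108.4; chromosome 2, minus strand, 91024218 to 91042991 in NCBIM37) was the only receptor gene with a row. It had 30, 37 and 19 counts in the libraries labelled AdWT, against 27, 24 and 49 in those labelled AdKO. These correspond to 1.96, 2.21 and 1.27 CPM and to 1.86, 1.58 and 2.94 CPM. AdKO replicate 3 held the highest value and AdWT replicate 3 the lowest, and the other 4 libraries lay between 1.58 and 2.21 CPM. The mean was 1.82 ± 0.487 CPM (SD, n = 3) in AdWT and 2.13 ± 0.721 CPM (SD, n = 3) in AdKO, a log2 fold change of 0.23 with a 95% confidence interval of −0.52 to 0.98 (adjusted *P* = 0.904 in edgeR's test). The sign rested on AdKO replicate 3, without which the log2 fold change was −0.08. *Nr1h3* has 3 rows in the table, of which 2 were at 0 in every library. The sources used here do not say how reads shared by rows of a symbol were counted, so a low count of such a gene may be an undercount.

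*Abca1* encodes the transporter that loads cholesterol and phospholipid onto lipid-poor apolipoprotein A-I. The gene (ENSMUSG00000015243.4) lies on the minus strand of chromosome 4, from 53043659 to 53172767 in NCBIM37, and has a single row with 11168 to 18435 counts per library. It measured 789, 1102 and 942 CPM in the libraries labelled AdWT, against 1072, 736 and 959 CPM in those labelled AdKO. The 2 highest values, in AdWT replicate 2 and AdKO replicate 1, thus came from different groups, as did the 2 lowest, in AdKO replicate 2 and AdWT replicate 1. The means of 944 ± 157 and 922 ± 171 CPM (SD, n = 3 each) differed by −0.03 on the log2 scale (standard error 0.168, adjusted *P* = 0.980 in edgeR's test). The 95% confidence interval ran from 0.743-fold to 1.28-fold. The sign was not fixed, with log2 fold changes of 0.09 without AdWT replicate 2, 0.10 without AdKO replicate 2 and 0.02 when the counts were scaled by library size only.

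*Abcg1* encodes the transporter that passes cholesterol on to mature HDL, and it had the lowest *P* of the 5 genes. The gene (ENSMUSG00000024030.6) lies on the plus strand of chromosome 17, from 31194643 to 31252722. It measured 298, 267 and 210 CPM in the libraries labelled AdWT, against 281, 297 and 331 CPM in those labelled AdKO. AdWT replicate 3 was the lowest of the 6 libraries and AdKO replicate 3 the highest, while AdWT replicate 1 lay above AdKO replicates 1 and 2. The mean was 258 ± 44.8 CPM in AdWT and 303 ± 25.4 CPM in AdKO (SD, n = 3 each), a log2 fold change of 0.23 with a 95% confidence interval of −0.08 to 0.54 (adjusted *P* = 0.853 in edgeR's test). Its size turned on single libraries. It was 0.09 without AdWT replicate 3 and 0.35 without AdWT replicate 1, where the unadjusted *P* was 0.0315 and the adjusted *P* 0.398 in the same edgeR test. A second row of *Abcg1* had 0 to 5 counts per library.

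*Abcg1* is known to be expressed in macrophages as well as in other cells, so macrophage markers were set beside it. Of 14 listed markers, 8 had a row and none of these was at 0 in all libraries. Summed, they stood at 2148, 1546 and 1006 CPM in the libraries labelled AdWT, against 1881, 2158 and 2486 CPM in those labelled AdKO, lowest in AdWT replicate 3 and highest in AdKO replicate 3, as for *Abcg1*. Of the 7 markers tested, 6 had a higher mean in AdKO (median log2 fold change 0.38), and 0 had an unadjusted *P* under 0.05 in edgeR's test. All 5 markers at or above 100 CPM, *Mrc1*, *Lyz2*, *C1qa*, *C1qc* and *Gpnmb*, were lowest in AdWT replicate 3. The part of these cells in the *Abcg1* values was not tested. Of the adipocyte markers, 6 of 7 tested had a lower mean in AdKO (median log2 fold change −0.23). *Lep*, for leptin, had an unadjusted *P* of 0.0221 (log2 fold change −0.46, adjusted *P* = 0.851 in edgeR's test). It was the only 1 of the 7 under 0.05, where 2.98% of all rows were lower. *Lep* and *Fabp4* had groups that did not overlap, against 11.9% of all rows. The summed levels of endothelial markers (878 to 1283 CPM in AdWT, 860 to 1222 CPM in AdKO), progenitor and fibroblast markers (89.8 to 113 and 84.5 to 120 CPM), lymphocyte markers (5.15 to 15.8 and 5.64 to 11.0 CPM) and smooth muscle markers (91.7 to 158 and 152 to 189 CPM) overlapped between the groups.

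**Figure D2:**
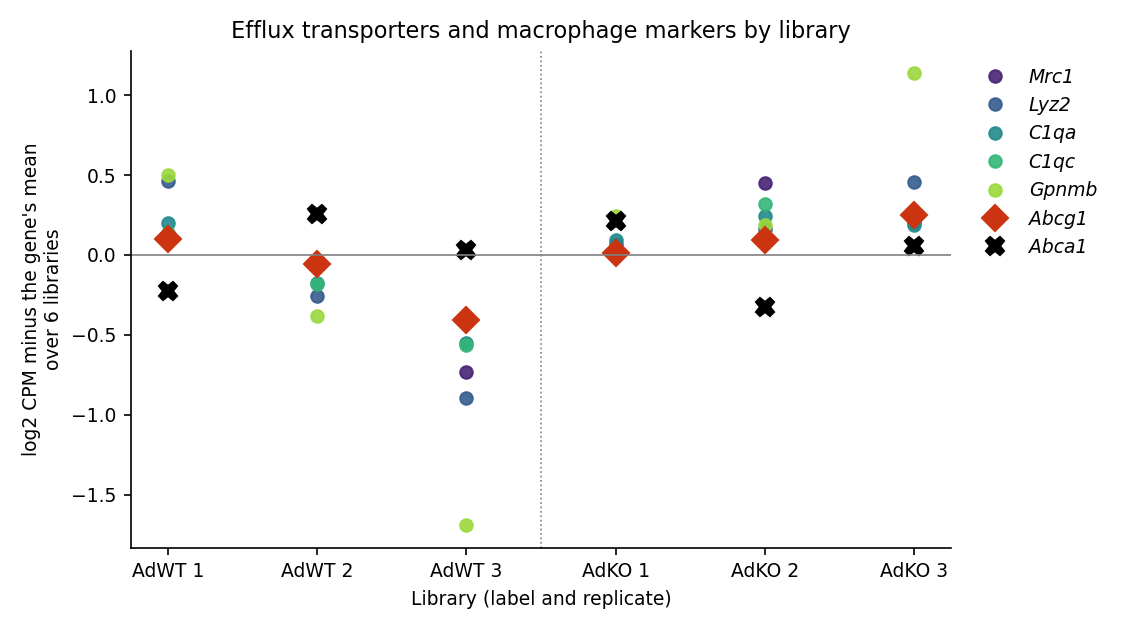
Log2 CPM minus the gene's mean over the 6 libraries (vertical axis) for *Abcg1* (red diamonds), *Abca1* (black crosses) and the 5 macrophage markers at or above 100 CPM (circles), by library. *Abcg1* and all 5 markers are lowest in AdWT replicate 3, whereas *Abca1* is lowest in AdKO replicate 2.

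The balance of the 2 efflux transporters needs no scaling between libraries, since both counts come from the same one. There were 2.64, 4.12 and 4.49 *Abca1* counts per *Abcg1* count in the libraries labelled AdWT, against 3.81, 2.47 and 2.90 in those labelled AdKO. AdWT replicate 1 fell among the AdKO values and AdKO replicate 1 near the other AdWT values. The mean log2 ratio was 1.87 ± 0.410 in AdWT and 1.59 ± 0.316 in AdKO (SD, n = 3 each), a difference of −0.28 (two-sided exact permutation test over 20 splits, *P* = 0.4, where 3 against 3 libraries cannot go below 0.1). The difference was −0.51 without AdWT replicate 1 and −0.13 without AdWT replicate 3. Because a longer transcript yields more reads, these ratios compare libraries and not the amounts of the 2 mRNAs.

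*Pltp*, which encodes the plasma protein that moves phospholipids between lipoproteins, was the steadiest of the 5 genes. The gene (ENSMUSG00000017754.7) lies on the minus strand of chromosome 2, from 164665018 to 164683211. It measured 1128, 1156 and 1193 CPM in the libraries labelled AdWT, against 1053, 1220 and 1306 CPM in those labelled AdKO. The AdWT values lay inside the range of the AdKO values, whose lowest and highest members were AdKO replicates 1 and 3. The means were 1159 ± 32.5 and 1193 ± 128 CPM (SD, n = 3 each), or 0.04 apart on the log2 scale (standard error 0.097, adjusted *P* = 0.945 in edgeR's test). The 95% confidence interval, from 0.880-fold to 1.20-fold, was the narrowest of the 5. Without AdKO replicate 3 the log2 fold change was −0.03.

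*Mylip* encodes IDOL, the ubiquitin ligase that sends the LDL receptor to lysosomes and so limits cholesterol uptake. The gene (ENSMUSG00000038175.9) lies on the plus strand of chromosome 13, from 45485111 to 45507388. It measured 323, 256 and 232 CPM in the libraries labelled AdWT, against 307, 353 and 242 CPM in those labelled AdKO. AdKO replicate 2, the lowest library for *Abca1*, was the highest for *Mylip*, and AdWT replicate 1, the second lowest for *Abca1*, was the second highest. The means were 270 ± 47.4 and 300 ± 56.1 CPM (SD, n = 3 each), a log2 fold change of 0.15 with a 95% confidence interval of −0.24 to 0.54 (adjusted *P* = 0.885 in edgeR's test). It was 0.01 without AdKO replicate 2, 0.04 without AdWT replicate 3, 0.29 without AdKO replicate 3 and 0.30 without AdWT replicate 1.

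*Lpcat3*, which encodes the enzyme that puts polyunsaturated chains into membrane phospholipids, had too few counts to be measured. It had 2, 2 and 1 counts in the libraries labelled AdWT and 1 in each of those labelled AdKO, and its other row was at 0 throughout. Every one of these counts is under that limit of 3 counts. With 2 rows for the symbol, they may be an undercount, as for *Nr1h3*, and their cause was not tested. The genes with no row analysed here were *Nr1h2*, *Apoe*, which encodes the apolipoprotein of remnant uptake and cholesterol efflux, *Scarb1*, which encodes the HDL receptor SR-BI, and *Srebf1*, which encodes the lipogenic transcription factor SREBP-1.

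Between genes, levels can be set side by side only per length of exon, which was possible for the 3 genes with a single row. On CPM per kilobase of exon, *Pltp* was at 459 ± 33.5 (SD over 6 libraries, range 411 to 510), above 99.1% of 8528 protein-coding genes with a single row. *Mylip* was at 93.2 ± 16.1 (75.7 to 115) and *Abca1* at 90.0 ± 14.2 (71.0 to 106), above 94.5% and 94.3% of those genes. The *Mylip* and *Abca1* ranges overlapped and their order does not hold beyond this spread, whereas *Pltp* lay above both in every library.

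Among mice of the same label, *Abca1*, *Mylip* and *Abcg1* varied more than most rows with a mean of at least 100 CPM, and *Pltp* lay near their middle. The SD of log2(CPM + 0.5) within groups was 0.261 for *Abca1*, 0.262 for *Mylip*, 0.202 for *Abcg1* and 0.116 for *Pltp*. Over those 1530 rows, which were not matched in level, its median was 0.104, and the 4 genes lay at or above the 89.5, 89.7, 81.7 and 55.6 percentiles of those rows. The highest library exceeded the lowest by 1.50-fold for *Abca1*, 1.52-fold for *Mylip*, 1.58-fold for *Abcg1* and 1.24-fold for *Pltp*. The spread of *Nr1h3* was 0.352, at counts low enough that sampling adds to it.

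**Figure D3:**
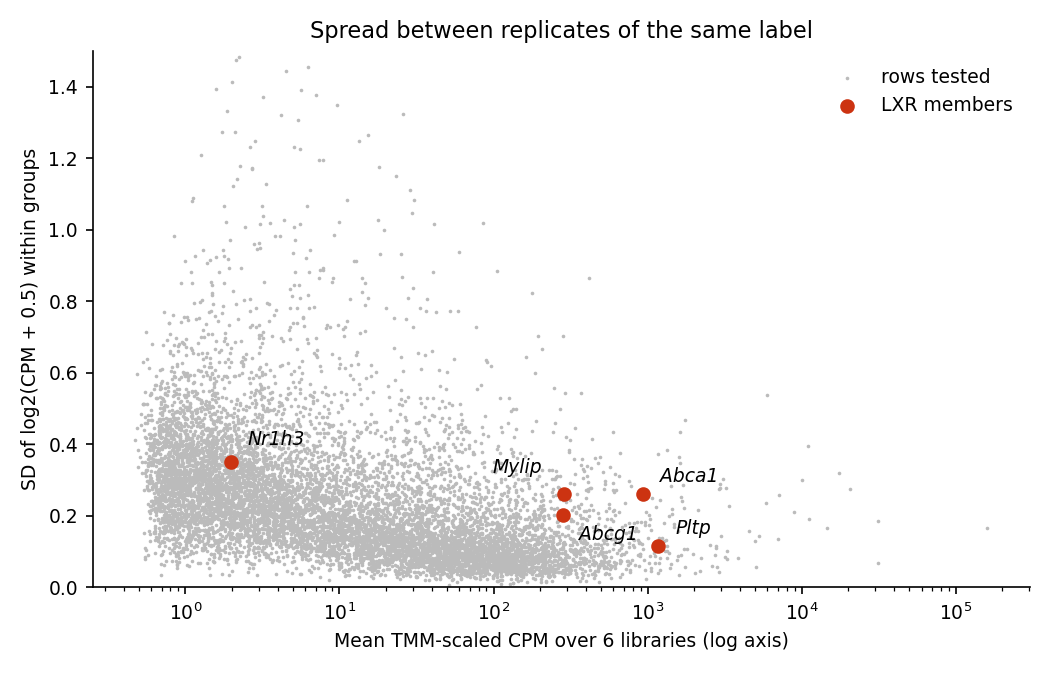
Within-group SD of log2(CPM + 0.5) (vertical axis) against mean TMM-scaled CPM over the 6 libraries (horizontal log axis) for all rows tested (grey) and the 5 LXR genes (red), with 46 rows above the top of the axis. *Abca1* and *Mylip*, both near 0.26, sit in the upper part of the cloud, and *Pltp*, at 0.116, close to its middle.

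The target genes did not all vary together over the 6 libraries. As a description, with points that share library and depth, the correlation of log2 levels was −0.62 (Pearson's *r*; Spearman's rho −0.49) between *Abca1* and *Mylip* and −0.24 (rho −0.31) between *Abca1* and *Abcg1*. Between *Abcg1* and *Nr1h3* it was 0.77 (rho 0.60). The 5 rows whose pattern was most like that of *Abca1* were *Bag4* (*r* = 0.992), *Gmppb* (0.989), *Rbm14* (0.988), *Mrps14* (0.986) and *Zxdc* (0.985), each over 6 libraries. Over so few libraries they are a description only. Of 9871 rows, 146 had an *r* with *Abca1* over 0.9 and 89 had one under −0.9.

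The genes around the LXR pathway were then read in the same test. Of 76 genes in 5 lists, 15 had no row analysed here, 18 were below the filter on low counts and 43 were tested. None (0 of 43) had an adjusted *P* under 0.05 in edgeR's test, and the smallest was 0.817. At an unadjusted *P* under 0.05 there were 7 (16.3%), of which 6 had a lower and 1 a higher mean in AdKO, against 5.73% of all rows. In 12 (27.9%) the groups did not overlap, against 11.9% of all rows. The lists were chosen with earlier results of these data known, so these shares are a description and no test of the pathway. The median log2 fold change was −0.03. DESeq2 with its defaults called 2 of these genes, *Cd36* among them, against 0.152% of the rows to which it gave an adjusted *P*.

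Of 17 LXR partners and coregulators, 13 were tested, 5 with a higher and 8 with a lower mean in AdKO (median log2 fold change −0.09). *Rxra*, which encodes the RXR known as a main LXR partner, measured 673 ± 30.4 CPM in AdWT and 632 ± 58.8 CPM in AdKO, a log2 fold change of −0.09. *Rxrg* was at 3.73, 3.95 and 4.42 CPM in AdWT and 3.57, 2.63 and 2.28 CPM in AdKO, where the groups did not overlap. The 2 genes with an unadjusted *P* under 0.05 were *Rxrg* (log2 fold change −0.51) and *Tbl1x* (−0.27), which encodes a subunit of the NCoR corepressor complex, and both had an adjusted *P* of 0.851 in edgeR's test. The corepressor deacetylase gene *Hdac3* (0.12) and the coactivator genes *Ep300* (0.02), *Crebbp* (near 0) and *Ncoa3* (0.06) had confidence intervals that included 0.

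Of 22 other LXR-induced genes, 11 were tested, 4 with a higher and 7 with a lower mean in AdKO (median −0.10). The lipogenic genes tested and *Lpl* did not pass the test, at mean levels from 295 CPM (*Acaca*) to 159998 CPM (*Scd1*). *Scd1*, the stearoyl-CoA desaturase, had a log2 fold change of −0.03, *Fasn*, the fatty acid synthase, −0.10, *Acaca*, the acetyl-CoA carboxylase, 0.04, *Scd2* 0.10 and the lipase gene *Lpl* 0.03. *Smpdl3a*, which encodes a secreted phosphodiesterase, measured 363, 406 and 424 CPM in AdWT and 355, 312 and 339 CPM in AdKO. Its groups did not overlap (log2 fold change −0.25, unadjusted *P* = 0.0232, adjusted *P* = 0.851 in edgeR's test). *Mertk*, which encodes a receptor for apoptotic cells, likewise did not overlap, with 40.4, 43.2 and 44.0 CPM in AdWT and 30.6, 33.2 and 40.0 CPM in AdKO (−0.30, adjusted *P* = 0.851 in the same test). Both had a lower mean in AdKO, where the sum of the macrophage markers had a higher one.

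Of 19 genes that make, move or store sterols, 11 were tested, 5 higher and 6 lower in AdKO (median −0.01). *Cyp46a1*, the cholesterol 24-hydroxylase that makes an LXR ligand, was the one gene of the 5 lists with a higher level at an unadjusted *P* under 0.05. It measured 2.09, 1.49 and 2.07 CPM in AdWT and 3.02, 3.23 and 3.12 CPM in AdKO (log2 fold change 0.73, adjusted *P* = 0.847 in edgeR's test), from few counts. *Npc2*, which carries cholesterol inside lysosomes, was at 2377 ± 169 CPM in AdWT and 2062 ± 75.0 CPM in AdKO without overlap (−0.20, adjusted *P* = 0.851 in the same test), while its partner *Npc1* had a log2 fold change of −0.01. The endocytic receptor gene *Lrp1* also did not overlap (0.22, adjusted *P* = 0.851 in edgeR's test). *Nceh1*, which hydrolyses cholesteryl esters in macrophages, had 71.8, 46.0 and 17.4 CPM in AdWT and 56.7, 68.8 and 94.6 CPM in AdKO, a log2 fold change of 0.70 with an interval of −0.34 to 1.75. It was 0.31 without AdWT replicate 3 and 1.21 without AdWT replicate 1. Like *Abcg1* and the summed macrophage markers it was lowest in AdWT replicate 3 and highest in AdKO replicate 3. *Stard4*, for a sterol carrier, had a log2 fold change of −0.03.

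*Srebf1* had no row analysed here, and of 6 genes for the partners of SREBP proteins 4 were tested, with 0 at an unadjusted *P* under 0.05 in edgeR's test. *Insig1*, which retains SREBPs in the endoplasmic reticulum, was at 922 ± 169 CPM in AdWT and 882 ± 31.1 CPM in AdKO (log2 fold change −0.06). *Srebf2*, the sterol-regulated sister gene, was at 9.14 ± 0.722 and 9.88 ± 1.12 CPM (0.11), from a row with 888 of the 1731 counts of its 3 rows, so its level is understated. The genes of the proteases that release SREBPs, *Mbtps2* (0.18) and *Mbtps1* (−0.26), also did not pass the test, although the *Mbtps2* groups did not overlap. For *Mbtps1* the value was −0.50 without AdWT replicate 1 and −0.11 without AdWT replicate 3.

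Of 12 paralogues of the 10 genes, 4 were tested. *Cd36*, the fatty acid and lipoprotein scavenger receptor related to *Scarb1*, measured 20.5, 21.5 and 14.3 CPM in the libraries labelled AdWT, against 10.2, 10.7 and 7.87 CPM in those labelled AdKO. Every AdKO library was below every AdWT library (log2 fold change −0.97, standard error 0.200). Adjusted over all rows, *P* was 0.817 in edgeR's test and 0.0133 in DESeq2 with its defaults. *Cd36* has 5 rows, and all 1330 of its counts lay in 1 of them, so its level may be an undercount. Its fold change rests on those counts alone. The transporter genes *Abca2* (−0.10) and *Abcg2* (0.25) and the acyltransferase gene *Lpcat4* (0.21) did not pass the test and had overlapping groups. Their sizes turned on AdWT replicates 1 and 3 and AdKO replicate 2, with ranges of −0.16 to −0.02 for *Abca2*, 0.13 to 0.47 for *Abcg2* and 0.02 to 0.33 for *Lpcat4* when single libraries were left out.

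**Figure D4:**
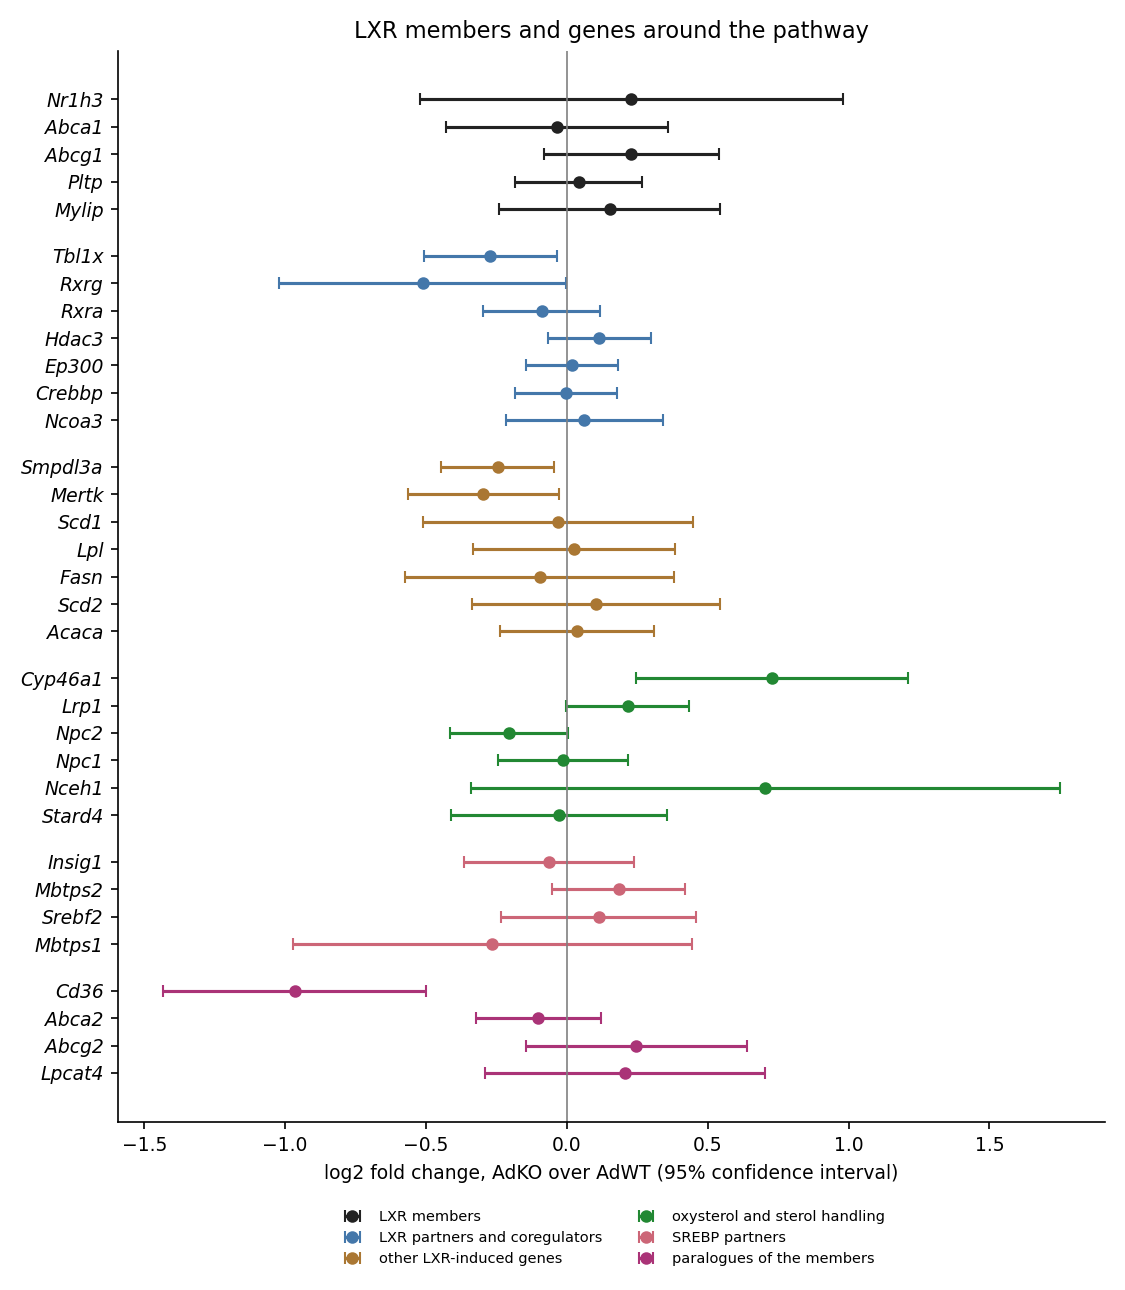
Log2 fold change, AdKO over AdWT by label (horizontal axis), with its 95% confidence interval in edgeR's test, for the 5 LXR genes (black) and the named genes of the 5 lists (colours), before any adjustment for multiple tests. All 5 LXR genes have intervals that include 0, and of the genes plotted *Cd36* (−0.97) and *Cyp46a1* (0.73) have the intervals farthest from it.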

How the data were processed

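The authors used HISAT2 to align stranded RNA-Seq reads to mm9. The deposited values are raw counts for each row, not normalized, and 0 columns belonged to no sample. The counting tool was not given in the sources used here. DESeq2 is named in the submitters' processing notes. Libraries were grouped by their labels, 3 AdWT and 3 AdKO.

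All rows were fitted with edgeR 4.0.16 in R 4.3.3 (filterByExpr by group, TMM scaling, glmQLFit and glmQLFTest), with Benjamini-Hochberg adjustment over the rows tested and a threshold of 0.05. Standard errors were derived from the log2 fold change and the F statistic, and CPM are TMM scaled. Levels of single libraries are CPM with nothing added. Spreads and correlations used log2 values of CPM with 0.5 added. Ratios used log2 values of counts with 0.5 added, and an exact permutation test. The ratios *Nr1h3* to *Nr1h2* and *Srebf1* to *Srebf2* could not be run. Positions and exon lengths came from GENCODE for NCBIM37. Python 3.11.15, scipy 1.17.1, pandas 2.3.3 and matplotlib 3.10.9 were used. The code was tested on simulated data, and no 2 libraries were duplicates. The common biological coefficient of variation was 0.196.

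The members and lists were chosen with earlier results of these data known. Named were the members, list genes with an unadjusted *P* under 0.05, up to 5 further genes per list by mean CPM, and the 5 rows most correlated with *Abca1*. The marker genes *Lep*, *Fabp4* and *Ttr* were named after their values were seen. A result for a single list gene is not reported here, though the list counts include it. Alternatives were DESeq2 1.42.0, other scalings and filters, a replicate block, a robust fit, summed rows per symbol and each library left out.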

Additional observations from a re-analysis of the deposited data

How the results depend on the processing

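The count of LXR genes with an adjusted *P* under 0.05 was 0 under every alternative run, and the smallest unadjusted *P* of any of them, 0.0315, came from *Abcg1* without AdWT replicate 1. Over the whole table the count was 0 in edgeR and went to 1 with a filter of at least 1 count in any library, to 17 with DESeq2's defaults and to 27 with DESeq2's filter set for 0.05, an alternative chosen after seeing the data. It was 0 to 1 with each library left out, with 1 without AdKO replicate 3. Both DESeq2 settings called 2 genes of the pathway lists, where edgeR called 0. Leaving out single libraries moved the rows with an unadjusted *P* under 0.05 from 566 to as few as 329 (AdWT replicate 2 out) and as many as 1208 (AdWT replicate 1 out). Their split was 272 higher and 294 lower, and 313 and 162 with library size only, which moved the median of all rows to 0.05, while RLE gave 239 and 325 and the upper quartile 233 and 324. Scaling by library size only turned the sign of *Abca1* (0.0222), *Crebbp* (0.0396), *Scd1* (0.0181), *Npc1* (0.0289) and *Stard4* (0.0285). When single libraries were left out, the sign depended on which one for *Crebbp* (−0.0378 to 0.0541), *Acaca* (−0.0656 to 0.171), *Npc1* (−0.0714 to 0.0744), *Abca1* (−0.156 to 0.0981), *Ep300* (−0.0139 to 0.0714), *Scd1* (−0.104 to 0.079), *Fasn* (−0.287 to 0.0504), *Stard4* (−0.117 to 0.116), *Insig1* (−0.167 to 0.0909), *Ncoa3* (−0.0404 to 0.145), *Lpl* (−0.0961 to 0.154), *Scd2* (−0.0927 to 0.286), *Nr1h3* (−0.0829 to 0.395) and *Pltp* (−0.0273 to 0.124). Of 528 values of named genes under the alternatives, 497 kept their sign and side of the threshold, 29 turned their sign, none of them past the threshold, and 2 came to pass it, those of *Cd36* in the 2 DESeq2 settings. The cause of these moves was not tested, beyond the fewer samples of a left-out library.

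Same-numbered libraries correlated at −0.07, −0.14 and 0.32 in their deviations, so the numbers were not taken as pairs and not every library correlated best with its own number. With the replicate block, 418 rows had an unadjusted *P* under 0.05, and 0 rows and 0 LXR genes an adjusted one. The block left the *Abca1* to *Abcg1* difference at −0.28, and without single libraries it lay between −0.51 and −0.13. *Lpcat3* had too few counts to be measured, and *Nr1h3*, at 19 to 49 counts, could show only large differences. The cause of these low counts was not tested.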
